A study of Saccharomyces cerevisiae with 36 samples.

Results

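At 10 min of heat, budding yeast lacking both MPK1 and RRP6 was compared with the wild type (WT) across all protein-coding open reading frames (ORFs). The comparison takes 6 of the 36 total RNA sequencing libraries of the study, 3 libraries of the double deletion and 3 of WT, and all 6600 ORF rows of each count file. Both strains are BY4742, a haploid laboratory strain of mating type alpha that lacks working HIS3, LEU2, LYS2 and URA3 genes, grown in rich medium (YPD) at 25 °C to mid-log phase, then brought to 42 °C with pre-warmed medium and frozen. The double deletion, written mpk1rrp6 below, lacks both genes in that background, and WT carries both. Values of both strains before heat, and of the single deletions mpk1 and rrp6 at 10 min, 3 libraries each, are set beside the comparison where they bear on it. The labels give the duration as 10 with no unit, and it is read as minutes because the treatment text is in minutes. The series design names 3 biological replicates per strain but not how the cultures were raised, so the p-values measure the spread between libraries. That spread was estimated over all 36 libraries of the study, not over the 6 compared alone.

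MPK1 is the older name of SLT2, the gene for the MAP kinase at the end of the cell wall integrity (CWI) pathway. Sensors of the plasma membrane pass wall stress through the GTPase Rho1 and protein kinase C to a kinase cascade that ends in Slt2, which activates the transcription factors Rlm1 and SBF. Heat is a well known activator of this pathway. RRP6 encodes a 3′ to 5′ exonuclease of the nuclear exosome, which trims the precursors of small nucleolar RNAs (snoRNAs) and ribosomal RNA and degrades unstable nuclear transcripts. In yeast, heat also raises chaperone and general stress genes and lowers genes for ribosomes and their assembly.

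The mpk1rrp6 libraries A, B and C held 7255349, 4944624 and 11792808 counts in ORFs, and the WT libraries 5372113, 5055049 and 10134101. The deleted SLT2 (YHR030C), which spans bases 168890 to 170344 of chromosome VIII in build R64, had 0 counts in each mpk1rrp6 library, against 329, 280 and 700 in WT. With a floor of 3 counts in a library it was at least 107-fold lower in mpk1rrp6. RRP6 (YOR001W, chromosome XV, 326832 to 329033) had 1, 0 and 0 counts in mpk1rrp6, against 101, 105 and 146 in WT. No library held a count for URA3 or LYS2, and a single LEU2 count, 1, came from mpk1rrp6 C. HIS3 was counted in every library of both groups. MF(ALPHA)1, the main alpha-factor gene, had 1052 to 2987 counts in mpk1rrp6 and 3426 to 5715 in WT. Of 7 a-cell genes, AGA2 had 6 to 27 counts in mpk1rrp6 and 9 to 19 in WT. STE2, the highest of the 7, had 73 to 263 counts in mpk1rrp6 and 83 to 218 in WT. In mpk1rrp6 C, STE2 had 263 counts and the alpha-cell gene STE3 had 308. Across genes, log2 levels correlated with r of 0.9578 to 0.9809 between mpk1rrp6 libraries and 0.9045 to 0.9514 between the groups. On the first principal component, holding 63.79% of the variance, mpk1rrp6 C lay at −37.74, beyond A at −24.33 and B at −19.39, and the WT libraries lay between 24.57 and 30.58. Where leaving out mpk1rrp6 C ended a call or moved the value of a called gene by more than 1.5 times, the value without it is given.

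Of 6017 genes with enough counts to test, 2239 differed, which is 37.2%. Of these, 1126 rose in mpk1rrp6, 18.7% of the genes tested, and 1113 fell, 18.5%. A gene is said to rise or fall where the quasi-likelihood test of edgeR called it at a false discovery rate of 0.05, adjusted by Benjamini and Hochberg over all genes tested. Among them 344 rose and 309 fell at least 2-fold. Libraries of the groups did not overlap for 2453 genes, 40.8%, with mpk1rrp6 above WT for 1170 and below it for 1283. The median log2 fold change of all genes was 0.02. Scaling by total counts moved that median by 0.14 and gave 1396 genes higher and 699 lower, so 66.6% of calls were higher in mpk1rrp6, against 50.3% in the main fit. A fit to these 6 libraries alone called 1285 genes. Levels are given as CPM, read counts divided by the effective library size and brought to a common total, and log2 fold changes are mpk1rrp6 over WT with the standard error (SE) of the fit, from 3 libraries per group. In bulk RNA, fewer cells of a kind and less RNA per cell cannot be told apart, and levels are relative to the total of each library.

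**Figure D1:**
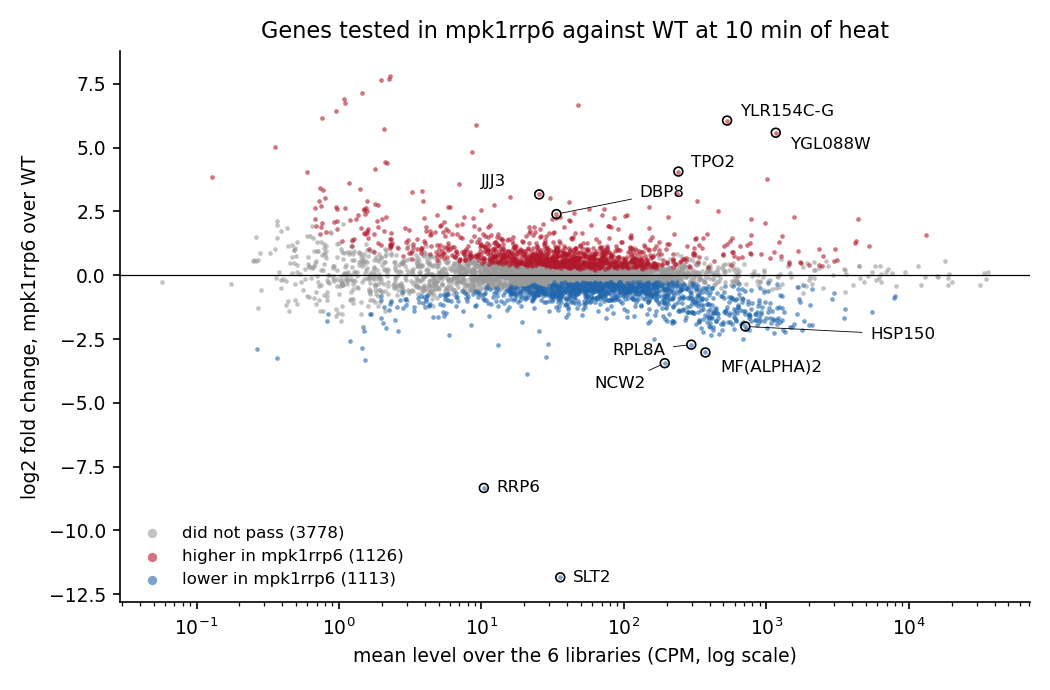
Each point is 1 of the 6017 genes tested, with the mean level over the 6 libraries in CPM on a log scale along x and the log2 fold change of mpk1rrp6 over WT along y. The 1126 red genes rose and the 1113 blue genes fell, the deleted genes SLT2 and RRP6 lie at the bottom, and 2 ORFs that overlap stable RNA genes, YGL088W and YLR154C-G, lie at the top right.

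All 3 tested ORFs whose coding bases overlap a snoRNA gene rose, and so did both that overlap a ribosomal RNA gene. YGL088W (chromosome VII, 345836 to 346201, plus strand) is a small ORF of which 216 coding bases lie inside SNR10, an H/ACA snoRNA gene. It reached 2403, 2970 and 1472 CPM in mpk1rrp6 A, B and C, against 40.2, 78.9 and 24.6 CPM in WT. The lowest mpk1rrp6 library was far above the highest WT library, and the log2 fold change was 5.59 ± 0.40 (edgeR adjusted p = 1.34e-11). YJL047C-A (chromosome X, 349044 to 349178, minus strand) shares 49 coding bases with the 3′ part of SNR60, a C/D box snoRNA gene. Its levels were 118, 174 and 80.3 CPM in mpk1rrp6, against 19.0, 27.5 and 16.4 CPM in WT. The groups did not overlap, and it rose by 2.58 ± 0.30 (edgeR adjusted p = 1.23e-07). IRC13 (YOR235W, chromosome XV, 779870 to 780184, plus strand) shares 78 coding bases with SNR17A, which encodes the U3 snoRNA of ribosomal RNA processing. It stood at 26.3, 17.8 and 16.9 CPM in mpk1rrp6 and at 6.88, 9.26 and 6.97 CPM in WT, again with no overlap, a rise of 1.42 ± 0.36 (edgeR adjusted p = 0.00268). Where reads fell around the snoRNA ends that lie inside these ORFs is not known from the counts. Those ends are shown because each bounds an overlap, with snoRNA bases in capitals and 60 bases on each side, from the R64 genome:
YGL088W and the 5′ end of SNR10, chrVII:345926-346045, plus strand: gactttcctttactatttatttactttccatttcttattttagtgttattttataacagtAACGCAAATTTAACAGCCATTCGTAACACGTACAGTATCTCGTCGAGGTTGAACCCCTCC
YJL047C-A and the 3′ end of SNR60, chrX:349070-349189, minus strand: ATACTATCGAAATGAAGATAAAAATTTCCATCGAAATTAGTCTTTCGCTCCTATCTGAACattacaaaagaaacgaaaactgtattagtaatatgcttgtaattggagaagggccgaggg
IRC13 and the 5′ end of SNR17A, chrXV:780047-780166, plus strand: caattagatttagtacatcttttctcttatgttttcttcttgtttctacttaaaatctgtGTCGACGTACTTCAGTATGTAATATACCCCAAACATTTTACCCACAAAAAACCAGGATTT

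These ORFs were picked out after their values were seen, and the files count ORFs only, so how many of their reads came from the snoRNA, its precursor or an mRNA was not tested. The same holds for YLR154C-G (chromosome XII, 462522 to 462671), which lies wholly inside the 25S ribosomal RNA gene RDN25-2 and whose sequence is repeated along the ribosomal DNA. It had 632, 950 and 1552 CPM in mpk1rrp6, against 15.8, 31.5 and 1.74 CPM in WT, a log2 fold change of 6.06 ± 0.83 (edgeR adjusted p = 1.5e-06). NOG2 (YNR053C), which encodes a GTPase of large-subunit assembly, holds SNR191 in its intron. NOG2 stood at 116, 140 and 94.1 CPM in mpk1rrp6, against 20.8, 40.7 and 8.94 CPM in WT, and rose by 2.36 ± 0.33 (edgeR adjusted p = 1.9e-06). Of 8 tested genes with a snoRNA in an intron, NOG2 was the 1 that rose, 3 fell and 4 did not pass. RPL7A, which holds SNR39, fell by 1.74 ± 0.26, and RPL7B, which holds SNR59, had a log2 fold change of 0.00 ± 0.28. SER3, which encodes the first enzyme of serine synthesis, overlaps the noncoding RNA SRG1, whose transcription is known to repress it. SER3 had 150, 154 and 127 CPM in mpk1rrp6 and 308, 339 and 293 CPM in WT, and it fell by 1.13 ± 0.16 (edgeR adjusted p = 4.12e-06).

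Reads outside ORFs differed in the same libraries. Shares here are of all ORF counts and summary lines of a library. Whether a read aligned to several places entered once or more is not known from them. The no-feature line holds aligned reads that met no counted ORF, and reads on annotated RNA genes can be among them. Such reads took 7.588%, 7.485% and 6.246% in mpk1rrp6 A, B and C, against 4.455%, 4.356% and 3.701% in WT. The means were 7.106 ± 0.7468% and 4.171 ± 0.4097% (SD, n = 3 each). Reads that aligned to several places took 12.75%, 14.91% and 17.45% in mpk1rrp6 and 4.845%, 5.205% and 4.945% in WT. The groups did not overlap in either share. The exact two-sided permutation p was 0.1 for both, the smallest that 3 against 3 libraries can give. Of the 302 tested IDs with no match in the RefSeq annotation, 81 rose and 22 fell, 34.1% called against 37.2% of all genes. Their median log2 fold change was 0.245, against 0.02 for all genes. The tested IDs are part of 683, and an ID of few counts can pass the count filter through the groups where it is high. The counts of rises and falls therefore do not describe all 683. Over all 683 the median level was 0.401, 0.444 and 0.461 CPM in mpk1rrp6 A, B and C and 0.417, 0.463 and 0.348 CPM in WT, with overlapping groups. Among the tested IDs, 4 had no counts in any WT library. YGL109W had 4.28, 5.55 and 3.78 CPM in mpk1rrp6, YOR082C 2.81, 3.55 and 2.31 CPM, YLR154W-A 2.14, 8.43 and 2.86 CPM and YPL197C 1.604, 1.55 and 3.32 CPM.

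Among annotated genes outside that group, the strongest falls are described first. NCW2 (YLR194C, chromosome XII, 540809 to 541573), which encodes a structural glycoprotein of the cell wall, had 36.4, 30.6 and 30.5 CPM in mpk1rrp6, against 432, 286 and 346 CPM in WT. Every mpk1rrp6 library was well below every WT library, and the log2 fold change of −3.45 ± 0.27 (edgeR adjusted p = 9.1e-11) was the largest fall by the rule for named genes apart from the deleted genes. MF(ALPHA)2 (YGL089C), the minor alpha-factor gene, had 134, 85.7 and 26.5 CPM in mpk1rrp6 and 619, 852 and 526 CPM in WT, and fell by 3.03 ± 0.39. TIR1, which encodes a cell wall mannoprotein of cold and low oxygen, had 6.68, 9.99 and 7.56 CPM in mpk1rrp6 and 56.7, 57.6 and 38.5 CPM in WT, and fell by 2.68 ± 0.24. CAR2, which encodes ornithine aminotransferase of arginine breakdown, had 47.3, 37.3 and 62.1 CPM in mpk1rrp6, against 282, 255 and 301 CPM in WT. None of these libraries overlapped, and CAR2 fell by 2.50 ± 0.25. SRT1, which encodes a prenyltransferase of dolichol synthesis, fell by 2.33 ± 0.27, and ASI3, which encodes part of a ubiquitin ligase of the inner nuclear membrane, by 2.22 ± 0.29.

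Among annotated genes that rose, TPO2 (YGR138C), a polyamine exporter gene, had 201, 512 and 654 CPM in mpk1rrp6 and 28.5, 25.7 and 27.4 CPM in WT. All 3 mpk1rrp6 libraries were above WT but they spread widely, and the log2 fold change was 4.06 ± 0.60 (edgeR adjusted p = 4.3e-06). YRO2, which encodes a plasma membrane protein, rose by 3.76 ± 0.45, and STP4, a zinc finger gene, by 3.17 ± 0.51. JJJ3, which encodes a J-domain protein of diphthamide synthesis, had 43.3, 50.6 and 42.7 CPM in mpk1rrp6, against 3.33, 9.26 and 3.48 CPM in WT, a rise of 3.17 ± 0.27 (edgeR adjusted p = 4.9e-10). The metallothionein genes CUP1-1 and CUP1-2 rose by 3.08 ± 0.41 and 3.03 ± 0.37. They are near-identical copies with the noncoding RNA genes RUF5-1 and RUF5-2 on the opposite strand, and the strand setting of the counting is not given in the sources used here, so their shares are uncertain. YPR159C-A, which overlaps a tRNA gene on the opposite strand, rose by 2.67 ± 0.40. GCV1, which encodes a subunit of glycine cleavage, had 81.0, 59.5 and 76.4 CPM in mpk1rrp6, against 10.0, 10.2 and 9.64 CPM in WT, and rose by 2.87 ± 0.35. YER053C-A and EGO4 rose by 2.90 ± 0.50 and 2.69 ± 0.48.

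**Figure D2:**
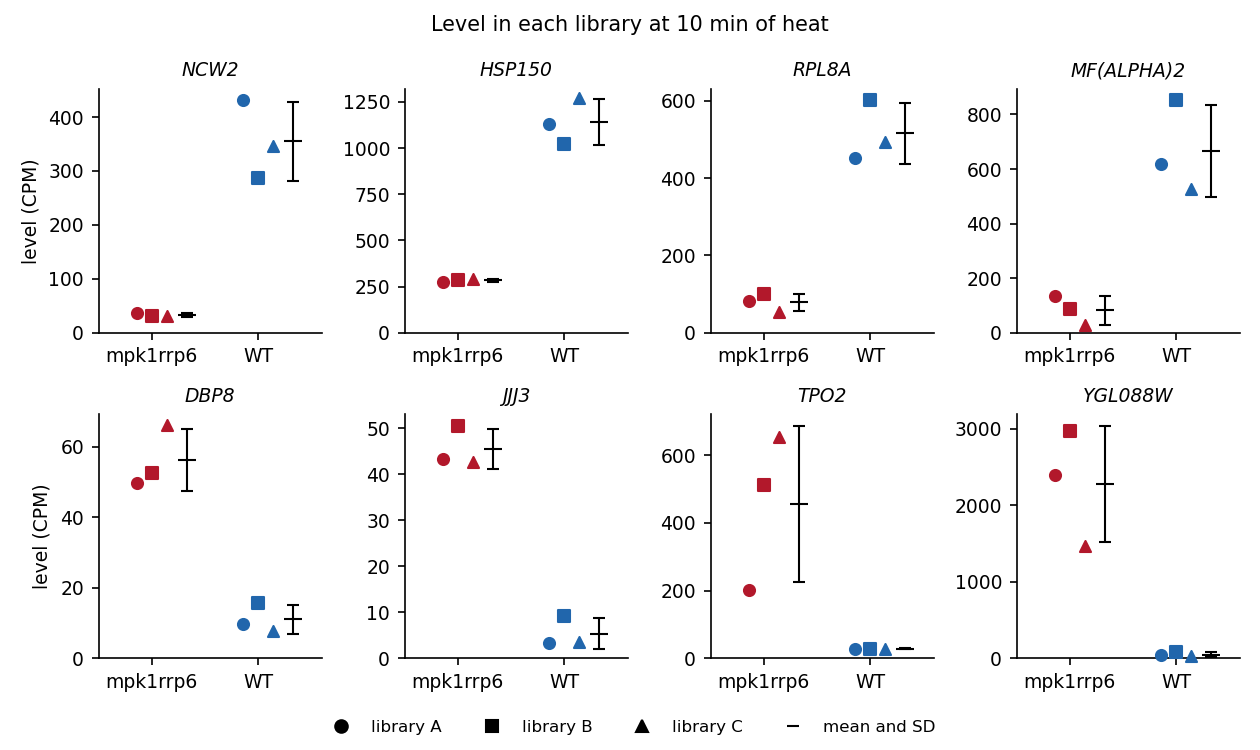
Level of 8 genes in each library at 10 min of heat, in CPM from 0, with mpk1rrp6 left of WT, library letters as marker shapes, and the mean with SD (n = 3) beside the points. In none of the 8 genes do the groups overlap, and mpk1rrp6 C is the lowest of its group for RPL8A and MF(ALPHA)2 and the highest for DBP8 and TPO2.

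The genes that the CWI pathway is known to drive fell as a group. Of 25 CWI target genes, 16 fell and 0 rose, 64% called against 37.2% of all genes tested. Their median log2 fold change was −0.69, against 0.02 for all genes. In these targets the summed level was 4073, 4378 and 4732 CPM in mpk1rrp6 A, B and C and 8181, 7516 and 8792 CPM in WT, so the groups did not overlap. Before heat the sums were already apart, at 4551, 4901 and 5038 CPM in mpk1rrp6 and 7723, 7736 and 7769 CPM in WT. Besides NCW2, HSP150 (YJL159W), which encodes a heat-induced wall protein of the PIR family, showed the largest fall. HSP150 had 276, 283 and 291 CPM in mpk1rrp6, against 1130, 1022 and 1270 CPM in WT. The libraries of each group lay close together, and HSP150 fell by 2.01 ± 0.21 (edgeR adjusted p = 2.2e-08). CHS1, a chitin synthase gene, had 367, 488 and 287 CPM in mpk1rrp6 and 960, 819 and 890 CPM in WT, and fell by 1.23 ± 0.26. GAS1, which encodes a glucan-remodelling enzyme, fell by 1.15 ± 0.21, CCW14, a wall protein gene, by 1.14 ± 0.25, and SED1, another wall protein gene, by 1.06 ± 0.28, although SED1 libraries of the groups overlapped and it lost its call in a fit to the 6 libraries alone, at −1.01 (edgeR adjusted p = 0.0721). FKS1, which encodes the main glucan synthase subunit, fell by 0.59 ± 0.16. PIR3, a second PIR family gene, fell by 1.05 ± 0.32 (edgeR adjusted p = 0.0099), and without mpk1rrp6 C its value was −0.94 (edgeR adjusted p = 0.0502).

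Not every wall gene was lower. CWP1, a mannoprotein gene, had 215, 178 and 505 CPM in mpk1rrp6 and 125, 153 and 230 CPM in WT, with a log2 fold change of 0.82 ± 0.34 (edgeR adjusted p = 0.056). It passed at 0.80 with replicate letters as a block (edgeR adjusted p = 0.0226), and at 1.02 to 1.11 without WT C, mpk1rrp6 A or mpk1rrp6 B. Without mpk1rrp6 C, its highest library, CWP1 was at 0.219 (edgeR adjusted p = 0.652). UTR2, which encodes a chitin transglycosylase, had 248, 432 and 230 CPM in mpk1rrp6 and 260, 217 and 245 CPM in WT, with overlapping groups and 0.33 ± 0.21. PRM5 stood at −0.11 ± 0.19. CWP2, outside the target list and in that of TIP1 and TIR mannoproteins, had 246, 311 and 274 CPM in mpk1rrp6 and 887, 1010 and 929 CPM in WT, and fell by 1.77 ± 0.22.

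Changes in the genes of the cascade itself were smaller. Of 22 cascade genes, 9 fell, the deleted SLT2 among them, and 2 rose, with a median of −0.35. In the cascade list 50% were called, against 37.2% of all genes tested. The sensor genes WSC3 and MID2 fell by 0.80 ± 0.17 and 0.49 ± 0.13, and BCK1, which encodes the first kinase of the cascade, by 0.57 ± 0.13. The genes for the GTPase RHO1 (−0.21 ± 0.14), the kinase MKK2 (−0.04 ± 0.13) and the transcription factor RLM1 (−0.19 ± 0.21) did not pass. The rises were in MTL1, a sensor gene, at 0.998 ± 0.263, and in ROM2, which encodes an exchange factor of Rho1, at 0.30 ± 0.10. MTL1 was at 0.55 without mpk1rrp6 C (edgeR adjusted p = 0.099), and ROM2 was at 0.222 to 0.295 and did not pass without WT A, WT B, mpk1rrp6 A or mpk1rrp6 C. In a fit to the 6 libraries alone 3 cascade genes fell and 0 rose.

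The upstream windows of 3 targets are shown because they hold a match to the Rlm1 motif, the sequence that the last factor of the pathway binds. Windows run from 350 to 51 bases before the start codon in the R64 genome, 5′ to 3′ on the gene's strand, with matches in capitals:
HSP150, chrX:120099-120398, plus strand: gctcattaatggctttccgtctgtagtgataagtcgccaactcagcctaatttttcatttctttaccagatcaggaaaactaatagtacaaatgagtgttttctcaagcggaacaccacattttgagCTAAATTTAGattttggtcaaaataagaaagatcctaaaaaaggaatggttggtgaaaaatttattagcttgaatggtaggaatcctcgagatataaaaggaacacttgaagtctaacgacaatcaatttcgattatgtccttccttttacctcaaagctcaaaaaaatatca
PIR3, chrXI:144051-144350, plus strand: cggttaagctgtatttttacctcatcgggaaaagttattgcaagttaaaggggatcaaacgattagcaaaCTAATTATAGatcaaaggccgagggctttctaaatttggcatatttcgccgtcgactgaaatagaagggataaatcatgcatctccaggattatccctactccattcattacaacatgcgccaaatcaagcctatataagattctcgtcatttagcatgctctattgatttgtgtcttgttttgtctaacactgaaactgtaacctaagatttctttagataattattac
PST1, chrIV:563177-563476, plus strand: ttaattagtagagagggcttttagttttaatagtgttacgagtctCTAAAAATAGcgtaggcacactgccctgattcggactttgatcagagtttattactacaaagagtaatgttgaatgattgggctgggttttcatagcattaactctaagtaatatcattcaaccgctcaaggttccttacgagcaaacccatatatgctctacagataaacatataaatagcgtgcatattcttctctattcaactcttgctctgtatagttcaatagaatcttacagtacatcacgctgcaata

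The matches begin 223, 280 and 305 bases before the start codons of HSP150, PIR3 and PST1. The motif, searched on both strands, was in 5 of 25 target windows, 20%, against 63 of 5715 windows of all tested genes, 1.1%. All 5 targets with a match fell, with a median of −1.05, and they were HSP150, PIR3, PST1, BGL2 and CCW14. Of the 20 targets without one 11 fell, with a median of −0.56. PST1, a wall protein gene, had 30.6, 35.7 and 20.9 CPM in mpk1rrp6 and 55.2, 76.1 and 46.9 CPM in WT, and fell by 1.04 ± 0.20. BGL2, a glucanase gene, fell by 0.98 ± 0.15. Among all 63 tested genes with a match 10 rose and 15 fell, with a median of −0.06. A match is a description of the sequence, not a measured binding site.

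Genes for cytosolic ribosomal proteins formed the largest group that fell. Of 138 genes in the list, 128 fell and 1 rose, 93.5% called against 37.2% of all genes tested, with a median log2 fold change of −1.62. The list was drawn by gene name and also took in RPP1, a subunit of RNase P. Its summed level was 48220, 61670 and 19820 CPM in mpk1rrp6 A, B and C, against 124000, 164300 and 120300 CPM in WT. Every mpk1rrp6 library was below every WT library, and mpk1rrp6 C was the lowest by a wide margin. RPL8A (YHL033C) had 82.2, 99.4 and 54.4 CPM in mpk1rrp6, against 451, 604 and 494 CPM in WT, and fell by 2.72 ± 0.23 (edgeR adjusted p = 4.6e-10). RPL1B had 243, 298 and 76.0 CPM in mpk1rrp6, against 992, 1427 and 1103 CPM in WT, and fell by 2.52 ± 0.33. RPL12A, RPL21B and RPL30 fell by 2.34 ± 0.38, 2.31 ± 0.39 and 2.28 ± 0.34, each lowest in mpk1rrp6 C. Without mpk1rrp6 C, 119 fell with a median of −1.23, and with both letter C libraries removed 120 fell with a median of −1.34.

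The exception was RPL18B, which had 426, 606 and 235 CPM in mpk1rrp6 and 236, 338 and 197 CPM in WT. Its log2 fold change was 0.72 ± 0.26 (edgeR adjusted p = 0.027), and the groups overlapped. It lost its call without WT A, WT C, mpk1rrp6 A or mpk1rrp6 B, at 0.37 to 0.71. Of 67 genes in the list of mitochondrial ribosomal proteins, 14 rose, 2 fell and 51 did not pass, with a median of 0.14. The 23.9% called was below the 37.2% of all genes. The summed level of that list was 3776, 3837 and 3408 CPM in mpk1rrp6 and 3439, 3370 and 3369 CPM in WT, and mpk1rrp6 C lay within the WT range.

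Of 41 ribosome biogenesis genes, 11 rose, 0 fell and 30 did not pass, with a median of 0.42. Called members made up 26.8% of the list, below the 37.2% of all genes tested. The summed level was 1972, 2291 and 1513 CPM in mpk1rrp6 A, B and C and 1500, 2207 and 1080 CPM in WT, so the groups overlapped. DBP8 (YHR169W), which encodes an RNA helicase of small-subunit assembly, had 49.7, 52.6 and 66.2 CPM in mpk1rrp6, against 9.79, 15.7 and 7.78 CPM in WT. The groups were far apart, and it rose by 2.40 ± 0.22 (edgeR adjusted p = 1.1e-09). RLP24 (YLR009W), a factor of large-subunit assembly, had 39.2, 50.8 and 35.9 CPM in mpk1rrp6 and 15, 19.2 and 10.4 CPM in WT, and rose by 1.52 ± 0.26. ALB1, of the same subunit's assembly, rose by 1.53 ± 0.36, and UTP15, of the small-subunit processome, by 1.27 ± 0.22. NOP56, a core protein of C/D snoRNA particles, stood at −0.66 ± 0.32 (edgeR adjusted p = 0.1). The count of rises moved with single libraries. It was 19 without WT B, 7 without mpk1rrp6 A, 5 with 3 falls without WT C, 7 with 3 falls without mpk1rrp6 B, and 6 with both letter C libraries removed.

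The upstream windows of DBP8 and RLP24 are shown because they hold the 2 motifs known from this regulon, PAC (GATGAG) and RRPE (AAAATTTT), in capitals over the same window as above:
DBP8, chrVIII:441831-442130, plus strand: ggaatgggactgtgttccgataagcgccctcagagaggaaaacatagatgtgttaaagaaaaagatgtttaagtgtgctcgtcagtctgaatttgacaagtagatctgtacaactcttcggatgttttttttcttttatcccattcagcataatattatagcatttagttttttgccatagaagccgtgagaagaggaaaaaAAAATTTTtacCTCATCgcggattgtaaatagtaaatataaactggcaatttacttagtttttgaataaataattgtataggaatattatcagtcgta
RLP24, chrXII:166187-166486, plus strand: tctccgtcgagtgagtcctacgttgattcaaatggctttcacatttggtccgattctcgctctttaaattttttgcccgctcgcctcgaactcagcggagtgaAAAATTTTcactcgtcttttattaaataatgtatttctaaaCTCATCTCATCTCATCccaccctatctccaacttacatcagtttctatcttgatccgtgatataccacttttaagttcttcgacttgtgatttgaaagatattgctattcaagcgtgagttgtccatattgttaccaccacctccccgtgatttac

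PAC was in 38 of 41 ribosome biogenesis windows, 92.7%, against 19.4% of all tested genes, and RRPE in 33, 80.5%, against 10.1%, on either strand and with matches allowed to overlap. In DBP8 the RRPE match begins 148 and the PAC match 137 bases before the start codon. RLP24 has RRPE at 247 and PAC at 206, 201 and 196 bases before it. Of the 38 genes of the list with PAC 10 rose, with a median log2 fold change of 0.41. Among all 1109 tested genes with PAC 277 rose and 148 fell, and their median was 0.11, against −0.01 for the 4606 without it.

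Ergosterol synthesis fell nearly throughout. Of 25 genes, 20 fell and 0 rose, 80% called against 37.2% of all genes tested, with a median of −0.58. ERG3, a sterol desaturase gene, had 98.4, 112 and 62.8 CPM in mpk1rrp6, against 291, 300 and 300 CPM in WT, and fell by 1.71 ± 0.16 (edgeR adjusted p = 3.7e-09). ERG25, a sterol oxidase gene, had 150, 154 and 154 CPM in mpk1rrp6 and 393, 362 and 481 CPM in WT, and fell by 1.44 ± 0.13. The groups were apart in both. ERG10, which makes acetoacetyl-CoA, fell by 1.23 ± 0.11 and ERG2, a sterol isomerase gene, by 1.21 ± 0.15. ERG28, a scaffold of the pathway, and IDI1, which isomerises its isoprenoid precursor, were at −0.07 ± 0.12 and 0.06 ± 0.13. In a fit to the 6 libraries alone 13 fell.

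Histone genes fell with the exception of the centromeric variant. Of 11 genes, 10 fell and 1 rose, 100% called against 37.2% of all genes tested, with a median of −1.01. HTB1, encoding histone H2B, had 246, 242 and 189 CPM in mpk1rrp6, against 683, 533 and 683 CPM in WT, and fell by 1.49 ± 0.14 (edgeR adjusted p = 2.1e-09). HTB2, HTA1 and HHF2 fell by 1.43 ± 0.16, 1.29 ± 0.17 and 1.22 ± 0.18. CSE4, which encodes the centromeric form of histone H3, had 36.8, 39.7 and 41.6 CPM in mpk1rrp6 and 18.8, 17.4 and 22.9 CPM in WT, and rose by 0.99 ± 0.17. Of 21 targets of SBF and MBF, the factors of the G1 to S transition, 9 fell and 0 rose. Called members were 42.9%, against 37.2% of all genes tested, and the median was −0.48. Among them SWE1, an inhibitor of the cell cycle kinase, fell by 1.06 ± 0.17, CSI2 by 0.95 ± 0.19, the cohesin gene MCD1 by 0.89 ± 0.18 and the thymidylate synthase gene CDC21 by 0.87 ± 0.17.

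Iron uptake genes fell as well. Of 21 genes of the iron regulon, 12 fell and 1 rose, 61.9% called against 37.2% of all genes tested, with a median of −0.60. FTR1, the high-affinity iron permease gene, had 136, 167 and 141 CPM in mpk1rrp6, against 596, 439 and 528 CPM in WT, and fell by 1.82 ± 0.16 (edgeR adjusted p = 8.4e-10). TIS11, whose product marks mRNAs of iron-using proteins for decay, had 21.4, 17.98 and 31.6 CPM in mpk1rrp6 and 67.1, 40.7 and 65.0 CPM in WT, and fell by 1.26 ± 0.27. FIT1, a siderophore-binding mannoprotein gene, fell by 1.12 ± 0.32 and FRE3, a reductase gene, by 0.98 ± 0.22. The gene that rose was ATX1, a copper chaperone, at 0.83 ± 0.23. In the phosphate regulon of 16 genes 4 fell and 1 rose, 31.2% called, below the 37.2% of all genes tested. SPL2 fell by 1.599 ± 0.345 and the acid phosphatase gene PHO5 by 0.94 ± 0.20, whereas PHM8 rose by 0.91 ± 0.27 and stood at 0.69 without mpk1rrp6 B (edgeR adjusted p = 0.06).

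Of the 4 alpha-cell genes, 3 fell, MF(ALPHA)2 as given above, SAG1 and MF(ALPHA)1. SAG1, the alpha agglutinin gene, had 263, 184 and 63.9 CPM in mpk1rrp6 and 501, 641 and 522 CPM in WT, and fell by 1.71 ± 0.35. MF(ALPHA)1 had 399, 629 and 97.0 CPM in mpk1rrp6 and 714, 1300 and 664 CPM in WT, and fell by 1.25 ± 0.41 (edgeR adjusted p = 0.017). The lowest library was mpk1rrp6 C in each case. MF(ALPHA)1 was at −0.79 without mpk1rrp6 C (edgeR adjusted p = 0.096) and at −0.88 without WT B (edgeR adjusted p = 0.12). STE3, the pheromone receptor gene, was at −0.51 ± 0.36 and did not pass.

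Few chaperone genes differed from WT. Of 27 chaperone genes under the heat shock factor Hsf1, 7.41% were called, against 37.2% of all genes tested. Of the 27, 2 rose and 0 fell, with a median of 0.13. They were SSE2, which encodes an Hsp110 nucleotide exchange factor, and HCH1, a cochaperone of Hsp90. SSE2 had 1712, 1899 and 2157 CPM in mpk1rrp6, against 602, 568 and 794 CPM in WT, and rose by 1.55 ± 0.18 (edgeR adjusted p = 1.8e-07), and HCH1 rose by 0.51 ± 0.13. SSA4, a heat-induced Hsp70 gene, had 29460, 40010 and 44090 CPM in mpk1rrp6 and 33940, 33450 and 36530 CPM in WT, with 0.13 ± 0.25. HSP104, the disaggregase gene, was at −0.16 ± 0.25. DESeq2 called 7 chaperone genes higher and scaling by total counts 10, and their median was −0.02 without mpk1rrp6 B.

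General stress genes were higher. Of 28 genes driven by Msn2 and Msn4, 14 rose and 3 fell, 60.7% called against 37.2% of all genes tested. Their median was 0.75, and their summed level was 60830, 51280 and 71620 CPM in mpk1rrp6, against 41340, 30170 and 45850 CPM in WT. YGP1, which encodes a wall-related glycoprotein of starved cells, had 940, 961 and 1969 CPM in mpk1rrp6 and 236, 215 and 379 CPM in WT, and rose by 2.22 ± 0.33 (edgeR adjusted p = 5.2e-06). HSP12, a membrane-stabilising heat shock gene, had 7405, 3525 and 10760 CPM in mpk1rrp6 and 1630, 814 and 2284 CPM in WT, and rose by 2.20 ± 0.48. GPH1, which encodes glycogen phosphorylase, rose by 2.06 ± 0.29. The falls were in GSY1, a glycogen synthase gene, by 1.29 ± 0.30, in GRE1 by 0.93 ± 0.18 and in TPS2, a trehalose phosphatase gene, by 0.56 ± 0.21. TPS2 lost its call without WT A, WT C or any mpk1rrp6 library, at −0.599 to −0.415. TSL1, a trehalose synthase subunit gene, was at −0.11 ± 0.26. A fit to the 6 libraries alone called 9 stress genes higher and 2 lower.

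Among 20 glycolysis genes 3 rose and 6 fell, 45% called, against 37.2% of all genes tested. TDH1, a glyceraldehyde phosphate dehydrogenase gene, had 489, 255 and 1599 CPM in mpk1rrp6 and 121, 96.7 and 188 CPM in WT, and rose by 2.52 ± 0.53. ENO1, an enolase gene, and HXK1, a hexokinase gene, rose by 2.27 ± 0.48 and 1.32 ± 0.35, whereas PDC1, the main pyruvate decarboxylase gene, fell by 1.32 ± 0.19. Without mpk1rrp6 C, TDH1 was at 1.46 (edgeR adjusted p = 0.0181) and ENO1 at 1.36 (edgeR adjusted p = 0.0178). TDH1 and ENO1 have close paralogs, so counts could be split between copies. With replicate letters as a block 11 fell. Among antioxidant genes GPX1, a peroxidase gene, rose by 2.25 ± 0.32 and the catalase gene CTT1 by 1.59 ± 0.38, and TSA1, the main peroxiredoxin gene, fell by 1.16 ± 0.24.

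Of 37 targets of Gcn4, the activator of amino acid synthesis, 16 rose and 4 fell, with a median of 0.37. That was 54.1% called, against 37.2% of all genes tested. ARG3, which encodes ornithine carbamoyltransferase, had 73.1, 127 and 90.2 CPM in mpk1rrp6, against 14.2, 20.4 and 14.3 CPM in WT, and rose by 2.58 ± 0.22 (edgeR adjusted p = 3.8e-10). ARG1, which encodes argininosuccinate synthetase, rose by 1.95 ± 0.27, and CPA1, which encodes the small subunit of carbamoyl phosphate synthetase, by 1.62 ± 0.16. GCN4 itself was at −0.26 ± 0.14. The falls were in SER3, in THR1 and THR4 of threonine synthesis, by 1.02 ± 0.17 and 0.31 ± 0.12, and in LYS9 of lysine synthesis, by 0.90 ± 0.12. THR4 lost its call without WT B, WT C or any mpk1rrp6 library, at −0.332 to −0.27. MUP1, the methionine permease gene, fell by 1.4 ± 0.196.

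Of 25 genes for the RNA exosome and its cofactors, 10 rose and 3 fell, the deleted RRP6 among the falls, with a median of 0.30. In this list 52% were called, against 37.2% of all genes tested. RRP4, a cap subunit gene, had 39.3, 44.6 and 40.02 CPM in mpk1rrp6, against 21.7, 23.6 and 21.1 CPM in WT. The libraries of each group were tight, and RRP4 rose by 0.90 ± 0.09 (edgeR adjusted p = 1.7e-08). RRP43, RRP45 and CSL4, genes of the ring and cap, rose by 0.87 ± 0.11, 0.77 ± 0.14 and 0.75 ± 0.13. The catalytic subunit gene DIS3 (−0.05 ± 0.10) and the helicase gene MTR4 (0.01 ± 0.28) did not pass. Apart from the deleted RRP6, SKI7, which couples the cytoplasmic exosome to its helicase, fell by 0.54 ± 0.12, and SKI3, part of that helicase complex, by 0.31 ± 0.11. SKI3 lost its call without WT C, mpk1rrp6 B or mpk1rrp6 C, at −0.311 to −0.205. Of 9 genes known to be attenuated by the Nrd1-Nab3 termination complex, which hands transcripts to the nuclear exosome, 4 fell and 0 rose. The share called was 44.4%, against 37.2% of all genes tested. HRP1, a cleavage factor gene, had 111, 116 and 55.7 CPM in mpk1rrp6 and 333, 335 and 363 CPM in WT, and fell by 1.87 ± 0.26. IMD3, of guanine nucleotide synthesis, had 92.8, 125 and 75.3 CPM in mpk1rrp6 and 327, 383 and 304 CPM in WT, and fell by 1.80 ± 0.16. URA2 fell by 0.81 ± 0.17 and the glucan synthase gene GSC2 by 0.65 ± 0.19. Of 8 genes next to the deleted loci, YHI9, adjacent to SLT2, rose by 1.17 ± 0.21, and 0 fell.

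**Figure D3:**
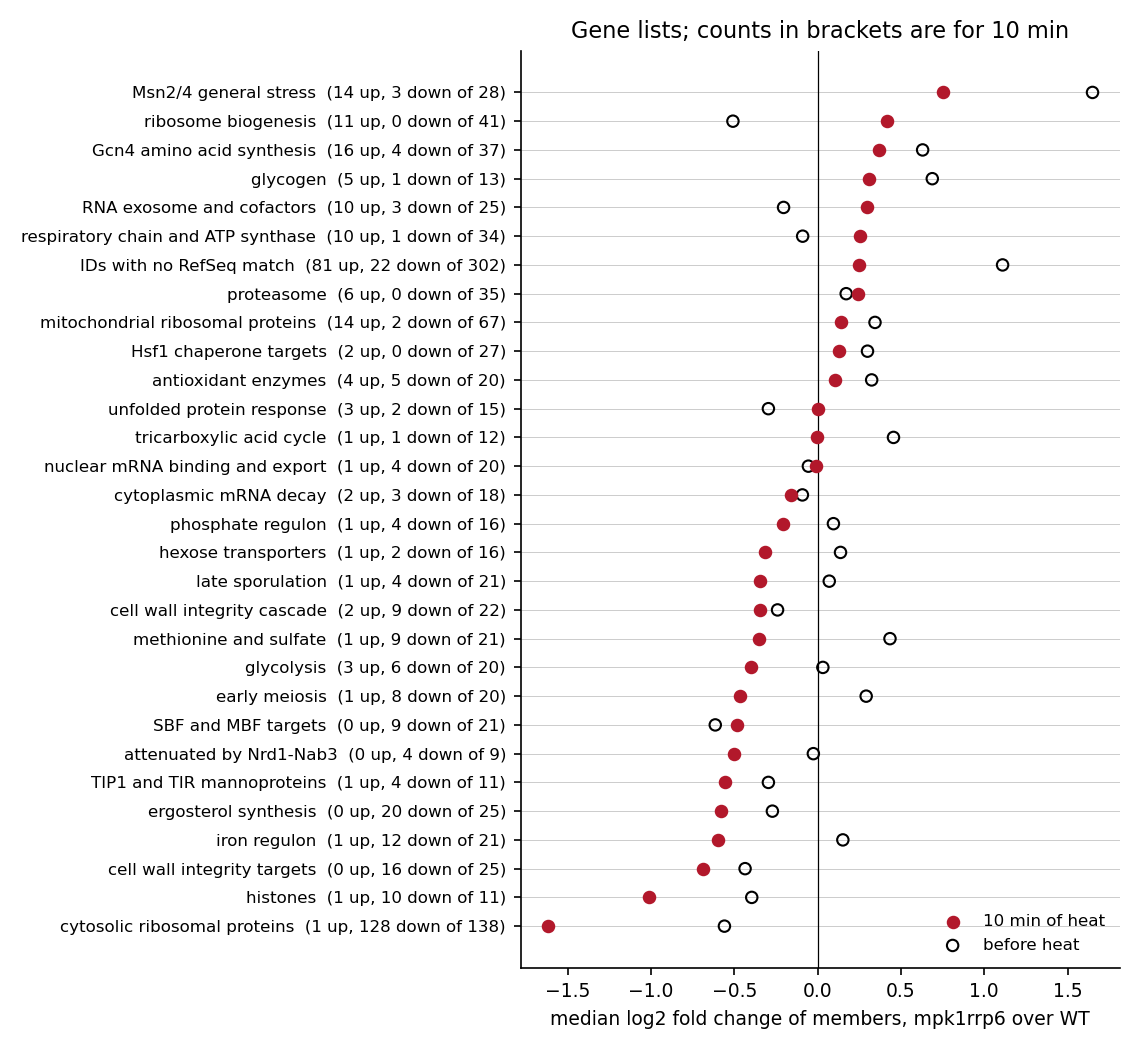
Median log2 fold change of mpk1rrp6 over WT for the members of each gene list, at 10 min of heat (filled) and before heat (open), with counts of members called at 10 min in brackets. Cytosolic ribosomal proteins have the lowest median at 10 min, −1.62, and general stress genes the highest, 0.75.

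Which of these differences heat changed was asked by testing the heat response, 10 min against 0 min, of mpk1rrp6 minus that of WT. Before heat 1589 genes differed between the strains, 26.4%, 891 higher and 698 lower in mpk1rrp6. That is fewer than the 2239 at 10 min, but the order depends on the fit. When each comparison was fitted to its own libraries alone, 2657 genes were called before heat and 1285 at 10 min. The heat responses differed for 1213 genes, 20.2%, with 550 higher and 663 lower in mpk1rrp6. Scaling by total counts shifted the median by −0.13 and left 23.7% of those calls higher, against 45.3% in the main fit, and DESeq2's size factors gave 55.8%. NCW2 had 43.1, 50.8 and 55.7 CPM in mpk1rrp6 before heat and 36.4, 30.6 and 30.5 CPM at 10 min, against 49.0, 57.5 and 70.2 CPM and then 432, 286 and 346 CPM in WT. The libraries of the strains overlapped before heat and were far apart at 10 min, and the difference in response was −3.21 ± 0.37 on the log2 scale (edgeR adjusted p = 4e-07). HSP150, PIR3 and PST1, the targets shown above with an Rlm1 motif, had differences of −1.48 ± 0.29, −2.26 ± 0.54 and −1.63 ± 0.28. BGL2 and CCW14, which also hold the motif, were at −0.34 ± 0.21 (edgeR adjusted p = 0.261) and −0.75 ± 0.36 (edgeR adjusted p = 0.136). Over all 25 CWI targets 6 had a lower and 4 a higher response in mpk1rrp6, with 15 not past the test and a median of −0.23. Before heat 12 of them were lower and 3 higher. CAR2 had 20.9, 26.6 and 25.2 CPM in mpk1rrp6 before heat, 19.2, 22.2 and 20.2 CPM in WT, and a difference in response of −2.73 ± 0.36.

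Other genes had a higher heat response in mpk1rrp6. CWP1 had 7.98, 16.9 and 11.9 CPM in mpk1rrp6 before heat, against 61.5, 70.1 and 47.9 CPM in WT, and a difference in response of 3.14 ± 0.52 (edgeR adjusted p = 6.67e-05). JJJ3 had 31.2, 29.7 and 23.8 CPM in mpk1rrp6 before heat and 32.3, 28.1 and 20.2 CPM in WT. At 10 min it was at or above 42.7 CPM in mpk1rrp6 and at or below 9.26 CPM in WT, and the difference in response was 3.10 ± 0.36 (edgeR adjusted p = 4.91e-07). DBP8 had 82.2, 83.9 and 72.5 CPM in mpk1rrp6 before heat and 117, 110 and 103 CPM in WT, so it was lower in mpk1rrp6 libraries before heat and higher at 10 min, with a difference of 2.87 ± 0.28. RGS2, a regulator of G protein signalling, PRM7 and BSC1 had differences of 3.20 ± 0.68, 3.31 ± 0.64 and 2.95 ± 0.84. That of CUP1-1 was 3.68 ± 0.94 and lost its call without WT B at 0 min, at 3.33 (edgeR adjusted p = 0.0784).

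PHM8 and several general stress genes were already higher in mpk1rrp6 before heat. PHM8, a phosphatase gene of the phosphate response, had 22.4, 14.2 and 33.1 CPM in mpk1rrp6 and 0.913, 1.29 and 1.81 CPM in WT before heat, and 1330, 1886 and 1201 CPM against 718, 811 and 825 CPM at 10 min. Its difference in response was −3.21 ± 0.52, with mpk1rrp6 higher at both times. GSY1 and TSL1 likewise had 16.7 to 25.8 CPM and 58.2 to 89.7 CPM in mpk1rrp6 before heat, against 5.78 to 9.34 CPM and 13.7 to 14.2 CPM in WT. Their differences were −2.90 ± 0.47 and −2.61 ± 0.39. HSP104 had 297, 322 and 632 CPM in mpk1rrp6 before heat and 160, 161 and 150 CPM in WT, with a difference of −1.58 ± 0.36. Of the 28 general stress genes 21 were higher in mpk1rrp6 before heat, with a median of 1.65, and 13 had a lower heat response, with 0 higher. Among the overlapping ORFs, YJL047C-A had a difference of −2.20 ± 0.55, SER3 of −2.08 ± 0.24 and NOG2 of 2.53 ± 0.44. Before heat YGL088W, YLR154C-G, YJL047C-A and IRC13 were already higher in mpk1rrp6, by 6.96, 5.53, 4.78 and 3.68 on the log2 scale. SER3 was higher by 0.95 before heat and lower at 10 min, whereas NOG2 stood at −0.17 before heat and did not pass.

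Over all genes tested, 20.2% were called for a difference in heat response, either way. By list, 11 of 21 iron genes, 9 of 25 ergosterol genes and 5 of 11 histone genes had a lower heat response in mpk1rrp6, with FTR1 at −1.44 ± 0.22, ERG3 at −1.34 ± 0.23 and HTB1 at −1.27 ± 0.19. Of 41 ribosome biogenesis genes 16 had a higher one and 0 a lower one, with a median of 0.83, and of 25 exosome genes 9 and 0. The biogenesis count of higher responses was 26 without WT B at 10 min, 7 without WT C at 10 min, 8 under total counts and 8 with both letter C libraries removed. Before heat 7 biogenesis genes were lower and 0 higher in mpk1rrp6, with a median of −0.51. Their sums then were 9598, 8876 and 9027 CPM in mpk1rrp6 and 13810, 13440 and 12950 CPM in WT. Of 138 ribosomal protein genes 50 had a lower response and 1 a higher one, with a median of −1.09. Before heat 17 were called lower and 1 higher, with a median of −0.56. Their sums were already apart before heat, at 192000, 181200 and 194100 CPM in mpk1rrp6 and 281600, 267500 and 291500 CPM in WT. The count of 50 lower responses rested on single libraries. It was 101 without mpk1rrp6 B at 10 min, 18 without mpk1rrp6 C or WT B at 10 min, 25 without WT A or WT B at 0 min, and 12 in a fit to the libraries of the comparison alone.

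**Figure D4:**
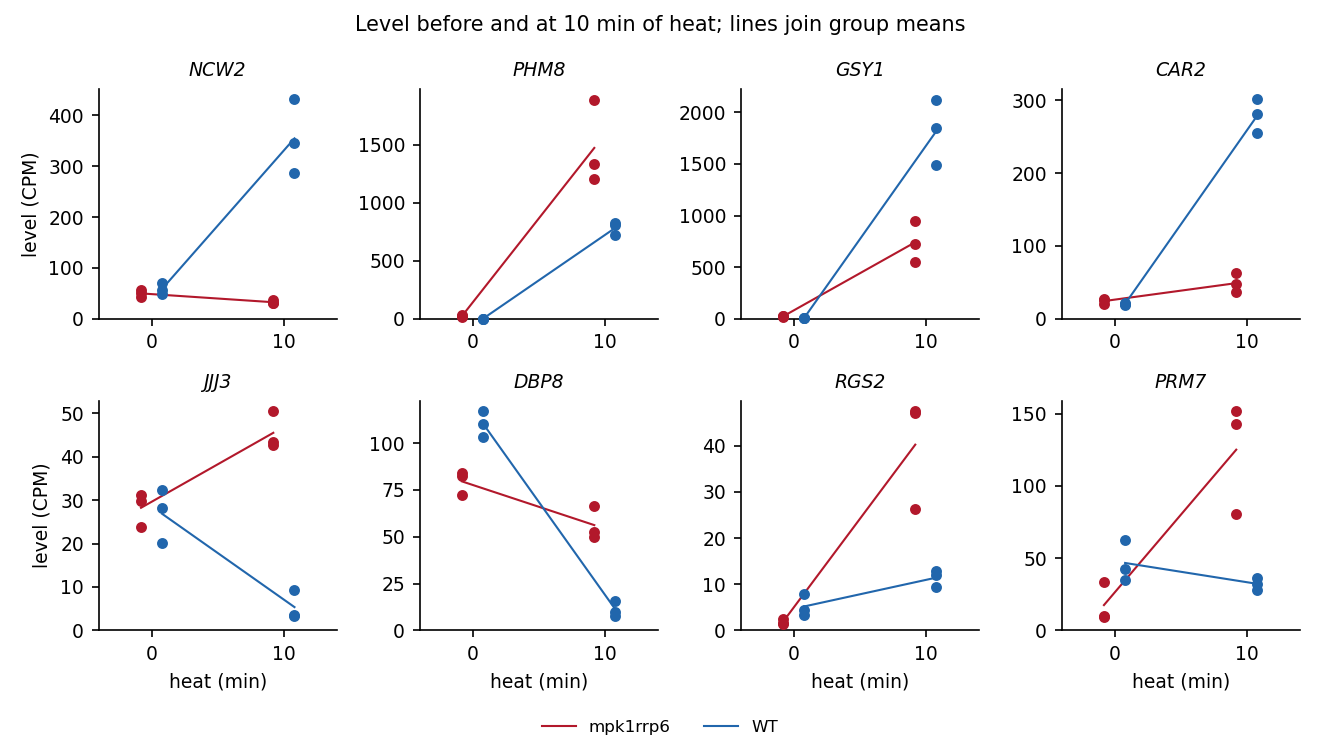
Level of 8 genes in CPM, from 0, before heat and at 10 min, in mpk1rrp6 (red, left of each pair) and WT (blue), with each library as a point and lines between group means. At 10 min NCW2 is lower and JJJ3 higher in mpk1rrp6 than in WT, from overlapping levels before heat, CAR2 rises less and DBP8 falls less in mpk1rrp6, and RGS2 and PRM7 rise mainly in mpk1rrp6.

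Set against the single deletions, mpk1rrp6 differed from rrp6 at 10 min for 524 genes, 8.71%, 288 higher and 236 lower, and from mpk1 for 1204 genes, 20%, 692 higher and 512 lower. Both counts are sensitive to the libraries used, since fits to the libraries of each comparison alone called 51 and 317. NCW2 was lower in mpk1rrp6 than in either single deletion. It had 36.4, 30.6 and 30.5 CPM in mpk1rrp6, against 130, 72.1 and 87.2 CPM in mpk1 and 99.0, 131 and 122 CPM in rrp6, a log2 fold change of −1.56 over mpk1 (edgeR adjusted p = 9.96e-05) and −1.85 over rrp6 (edgeR adjusted p = 3.86e-05). HSP150 was also lower than in both, with 276, 283 and 291 CPM in mpk1rrp6, 568, 592 and 487 CPM in mpk1 and 883, 1325 and 1420 CPM in rrp6. Its log2 fold changes were −0.95 over mpk1 (edgeR adjusted p = 0.00149) and −2.09 over rrp6 (edgeR adjusted p = 1.92e-07). Of the 25 CWI targets 13 were lower and 2 higher in mpk1rrp6 than in rrp6, and 3 lower and 4 higher than in mpk1. Over WT the median of these targets was −0.69 in mpk1rrp6, −0.82 in mpk1 and −0.14 in rrp6, and all 3 values share the WT libraries.

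The ORFs described above that overlap snoRNA or ribosomal RNA genes were higher in mpk1rrp6 than in mpk1. YGL088W was 6.39 above mpk1 and 1.10 below rrp6 on the log2 scale, and both differences passed. YJL047C-A was 4.14 above mpk1 and 1.11 below rrp6, and IRC13 was 1.75 above mpk1 and 1.37 below rrp6, all past the test. YLR154C-G was 6.97 above mpk1, and its log2 fold change over rrp6 of −0.55 did not pass. Ribosome biogenesis genes were mostly above mpk1, 29 of 41 and 0 below, with 2 above and 3 below rrp6. Over WT their median was 0.42 in mpk1rrp6, −1.03 in mpk1 and 0.43 in rrp6. Of 34 genes of the respiratory chain 13 were below mpk1 and 0 above it.

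The departure from additivity, the log2 change of mpk1rrp6 minus the sum of those of mpk1 and rrp6, was significant for 1010 genes, 16.8%, 611 positive and 399 negative. A positive value for a gene that fell in each single deletion means that mpk1rrp6 fell by less than their sum. Ribosomal protein genes were 131 of 138 positive and 0 negative, with a median of 1.87. Their median over WT was −1.62 in mpk1rrp6, −2.09 in mpk1 and −1.42 in rrp6. RPS0B had 178, 196 and 30.7 CPM in mpk1rrp6, 112, 56.8 and 113 CPM in mpk1, 283, 93.9 and 91.4 CPM in rrp6 and 484, 753 and 458 CPM in WT, with a departure of 2.37 ± 0.63 (edgeR adjusted p = 0.0105). Those of RPL11A and RPL8A were 2.38 ± 0.58 and 1.61 ± 0.32. A fit to the 4 groups alone called 14 ribosomal protein genes, with neither RPS0B nor RPL11A past the test (edgeR adjusted p = 0.0953 and 0.0801).

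ASI3 had the highest departure of the named genes, 2.96 ± 0.41. It had 117, 175 and 89.0 CPM in mpk1rrp6, 89.7, 104 and 163 CPM in mpk1, 84.0, 80.2 and 77.0 CPM in rrp6 and 473, 738 and 560 CPM in WT, so all 3 deletion strains lay below WT, with rrp6 below both others. The lowest departures were in genes that rose in each single deletion. TPO2 had 201, 512 and 654 CPM in mpk1rrp6, 72.4, 103 and 204 CPM in mpk1, 334, 984 and 1144 CPM in rrp6 and 28.5, 25.7 and 27.4 CPM in WT, with a departure of −3.07 ± 0.76 (edgeR adjusted p = 0.00719). STP4, EGO4 and YER053C-A had departures of −3.41 ± 0.68, −3.19 ± 0.65 and −3.18 ± 0.68, and MIG2, a glucose-repression factor gene, of −3.14 ± 0.58. Of 28 general stress genes 15 had a negative departure and 0 a positive one, with a median of −1.08. That count was 9 without WT B or mpk1rrp6 B and 5 in a fit to the 4 groups alone. NCW2 had a departure of 0.04 ± 0.36 and did not pass.

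**Figure D5:**
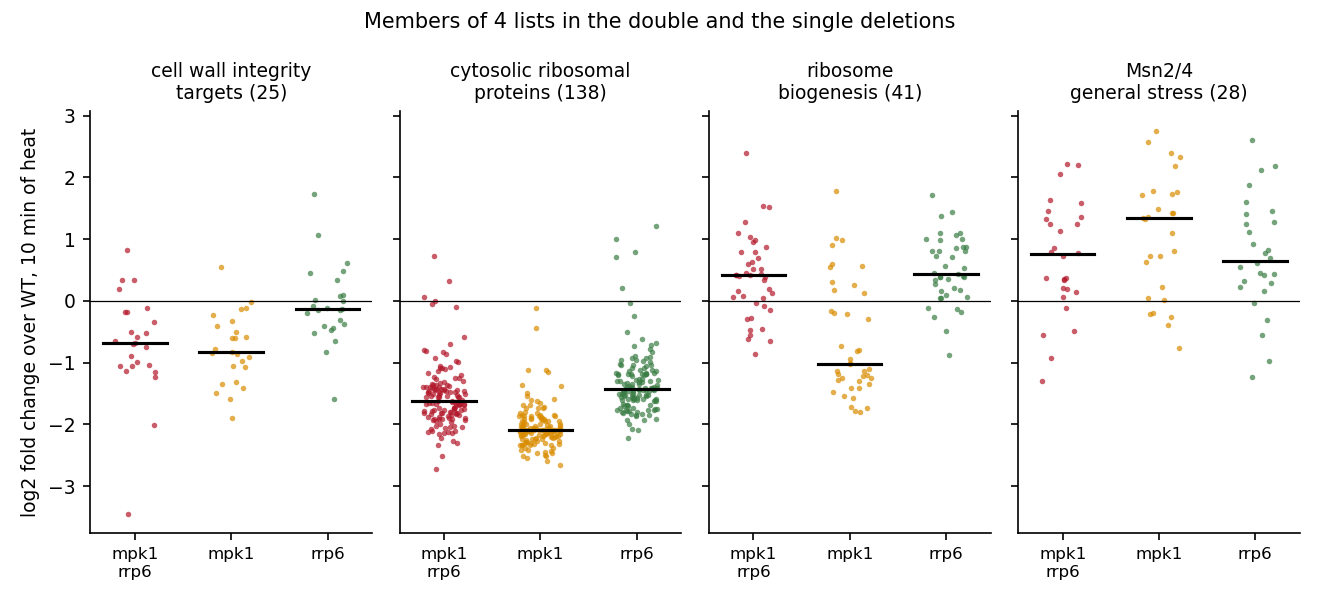
Log2 fold change over WT at 10 min of heat for each member of 4 gene lists, in mpk1rrp6, mpk1 and rrp6, with black bars at the medians. All 3 columns share the WT libraries. For CWI targets the medians are −0.69, −0.82 and −0.14, and for ribosome biogenesis genes 0.42, −1.03 and 0.43.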

How the data were processed

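Read counts per ORF were deposited by the authors, 1 table for each of 36 libraries from 4 strains at 3 times, and hold raw counts with 5 summary lines. Alignment used HISAT2 2.1.0 and counting used HTSeq on genome build R64, per the submitters' processing notes. The HTSeq version and strand setting are not given in the sources used here, and per the labels' protocols the libraries were made from total RNA, so counts of overlapping genes can be shared.

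The summary lines were left out of library sizes and tests. Of 6600 ORF IDs, 5917 matched a RefSeq locus tag and 683 did not. Genes were kept by filterByExpr (count minimum 10, total minimum 15), which left 6017. All libraries were scaled by TMM and fitted together in edgeR 4.0.16 (R 4.3.3, limma 3.58.1) with a coefficient for each of 12 strain and time groups, so all groups share 1 estimate of the spread. The quasi-likelihood test was used at a false discovery rate of 0.05, and the SE is the log2 fold change divided by the square root of F. The procedure was tested on simulated data, with the same spread in all groups and libraries drawn independently. That simulation could not test the effect of unequal spread between groups or of a shared replicate letter. ORF counts per library are given with the results and limit the precision of low genes, and floors of 3 counts cover counting error only.

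The comparison and the gene lists were chosen with earlier results of these data known. Named genes are the deleted genes, the 12 highest and 12 lowest called genes with a RefSeq match, a mean of at least 5 CPM and groups that do not overlap, up to 4 called and 2 other members of each list, and the extremes of the heat and additivity contrasts. ORFs that overlap stable RNA genes, genes at 0 in WT and hosts of snoRNAs were added after their values were seen. A gene that the rule also names is not reported here. Upstream windows and junctions were read from the RefSeq R64 genome.

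Deviations from the group means of same-letter libraries of mpk1rrp6 and WT at 10 min correlated at 0.104 (A), 0.478 (B) and 0.5 (C). From these data the letters were taken as a possible pairing, weak for A, since mpk1rrp6 A correlated at 0.0204 with WT B. Unaligned reads took 2.007% in mpk1rrp6 C and 2.573% in WT C at 10 min, against 8.005% to 11.68% in A and B. What the letters stand for beyond replicates is not given. The reported tests did not use the pairing, which entered only as a block among the alternatives. The labels give no other source of pairing. Alternatives were DESeq2 1.42.0, its size factors, total counts, other filters, RefSeq IDs alone, the libraries of a comparison alone, replicate letters as a block, each library left out and, added after seeing the data, both letter C libraries at 10 min left out.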

Additional observations from a re-analysis of the deposited data

Results flagged for a closer look

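The heat response of mpk1rrp6 differed from that of WT, by a direct test of the difference, for 1213 genes. Among wall genes the difference, mpk1rrp6 minus WT on the log2 scale, was −3.21 for NCW2, −1.48 for HSP150, −2.26 for PIR3, −1.63 for PST1 and 3.14 for CWP1. For other genes that responded less or fell more in mpk1rrp6 it was −2.73 for CAR2, −3.21 for PHM8, −2.90 for GSY1, −2.61 for TSL1, −1.58 for HSP104, −1.44 for FTR1, −1.34 for ERG3 and −1.27 for HTB1. It was 2.87 for DBP8, 3.10 for JJJ3, 3.20 for RGS2, 2.95 for BSC1, 3.31 for PRM7 and 3.68 for CUP1-1. Among ORFs that overlap stable RNA genes or host them it was −2.20 for YJL047C-A, −2.08 for SER3 and 2.53 for NOG2.

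The change in mpk1rrp6 differed from the sum of the changes in mpk1 and rrp6, by a test of that difference, for 1010 genes. The departure was 2.96 for ASI3, 2.38 for RPL11A, 2.37 for RPS0B and 1.61 for RPL8A. It was −3.41 for STP4, −3.19 for EGO4, −3.18 for YER053C-A, −3.14 for MIG2 and −3.07 for TPO2.

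A signal also appeared in reads that no ORF count holds. Aligned reads that met no counted ORF averaged 7.106% in mpk1rrp6 and 4.171% in WT at 10 min, with 3 libraries each. Reads aligned to several places averaged 15.04% in mpk1rrp6 and 4.998% in WT. Their part in the differences between ORFs was not tested.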

How the results depend on the processing

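For mpk1rrp6 against WT at 10 min the 2239 calls became 1285 in a fit to those 6 libraries alone, and the cause was not tested. Leaving out 1 library gave 1870 to 2305. Fits to the libraries of a comparison alone gave 2657 calls before heat against 1589, 51 against 524 over rrp6, 317 against 1204 over mpk1 and 177 against 1010 for the departure from additivity. Those fits gave more calls over WT before heat than at 10 min, whereas the reported fit gave fewer. Leaving out 1 library gave 1126 to 1243 calls before heat, 920 to 1296 for the heat response, 255 to 497 over rrp6, 584 to 1822 over mpk1 and 488 to 1623 for the departure. The lowest and highest of the last pair came without mpk1rrp6 B and without mpk1rrp6 C, and the lowest over rrp6 without rrp6 C. With replicate letters as a block, 2437 genes were called at 10 min, and among the named genes the pairing changed the call of CWP1. With total counts 93.9% of calls before heat were higher in mpk1rrp6, against 56.1% in the reported fit, 82.2% against 55% over rrp6, 40.2% against 57.5% over mpk1 and 47.7% against 60.5% for the departure. Of single-gene values at 10 min under the alternatives, 49 lost their call and 7 gained one. No called value changed sign, whereas 21 values of genes that had not passed did, among them PRM5, MKK2, MTR4, TSL1 and RPL7B, as did 6 for the departure of NCW2. In the fit to the 6 libraries alone the calls of GSC2 (−0.60, edgeR adjusted p = 0.0553), CTT1 (1.65, 0.051), HCH1 (0.56, 0.0501) and MID2 (−0.44, 0.0501) were lost, and that of GSC2 also with both letter C libraries removed (−0.62, 0.0558). Depth limits genes of few counts.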
